A study of Mus musculus with 10 samples.

Results

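The genes described here are 10 that endothelial cells regulate or use under blood flow: Klf2, Klf4, Nos3, Thbd, Piezo1, Edn1, Ednra, Vwf, Selp and Vcam1. They were taken by gene symbol from the 54532 genes of the deposited table, and 9 of them, all but Selp, reached the mean of 0.5 FPKM at which 15388 genes were tested. FPKM counts the fragments sequenced from a gene, divided by its exonic length in kilobases and by a scaling value for the library. The lungs came from wild-type C57/BL6 pups of either sex. In the IncPBF group, for increased pulmonary blood flow, a fistula between the abdominal aorta and the inferior vena cava had been made at P7 by passing a needle through both vessels. The sham group had the laparotomy and exposure without the puncture. Whole lungs were collected at P14, 5 per group, so the RNA of all cell types was measured together, and for any endothelial gene fewer endothelial cells and less RNA per cell cannot be told apart.

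Blood moving along a vessel wall pulls on its endothelial lining, and ion channels such as PIEZO1, junction proteins and receptors turn that pull into signals inside the cell. Steady laminar flow is known to act through the kinases MEK5 and ERK5 and MEF2 factors to switch on the transcription factors KLF2 and KLF4. These in turn raise the nitric oxide synthase NOS3 and the anticoagulant receptor thrombomodulin (Thbd), and lower endothelin-1 and adhesion molecules such as VCAM1.

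The table's coordinates are those of GRCm38, and each gene's length in the table equalled its exonic bases in GENCODE M21. Klf2 lies at chr8:72319033-72321656 on the plus strand, Klf4 at chr4:55527143-55532466 on the minus strand, Piezo1 at chr8:122481698-122551329 on the minus strand and Edn1 at chr13:42301476-42307990 on the plus strand. Nos3 lies at chr5:24364810-24384474 and Vwf at chr6:125546774-125686679 on the plus strand, and Thbd, a gene of 1 exon, at chr2:148404466-148408188, Ednra at chr8:77663031-77724464 and Vcam1 at chr3:116109949-116129688 on the minus strand. Selp lies at chr1:164115264-164150026 on the plus strand. The promoters of Klf2, Klf4, Piezo1 and Edn1 are shown because the regulators Klf2 and Klf4 varied together, while Piezo1 and Edn1 are a flow sensor and a flow target. Each line below is the 250 bases before the RefSeq start on GRCm38.p6, 5′ to 3′ on the gene's strand, at chr8:72318812-72319061, chr4:55532476-55532725, chr8:122551330-122551579 and chr13:42301226-42301475. Capitals mark a KLF box, which reads CACCC on one strand and GGGTG on its complement, or the element GAGACC, which reads GGTCTC on its complement and was described in promoters that respond to shear stress.
Klf2: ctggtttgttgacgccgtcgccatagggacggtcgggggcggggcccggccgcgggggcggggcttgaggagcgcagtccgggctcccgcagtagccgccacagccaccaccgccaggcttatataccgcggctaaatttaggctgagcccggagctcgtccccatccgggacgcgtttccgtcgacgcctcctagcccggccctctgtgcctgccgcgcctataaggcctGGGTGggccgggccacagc
Klf4: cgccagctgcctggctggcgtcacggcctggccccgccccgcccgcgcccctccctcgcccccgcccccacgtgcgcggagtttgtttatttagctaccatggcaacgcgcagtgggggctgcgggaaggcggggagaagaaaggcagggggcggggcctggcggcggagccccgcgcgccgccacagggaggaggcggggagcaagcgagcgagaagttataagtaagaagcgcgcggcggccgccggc
Piezo1: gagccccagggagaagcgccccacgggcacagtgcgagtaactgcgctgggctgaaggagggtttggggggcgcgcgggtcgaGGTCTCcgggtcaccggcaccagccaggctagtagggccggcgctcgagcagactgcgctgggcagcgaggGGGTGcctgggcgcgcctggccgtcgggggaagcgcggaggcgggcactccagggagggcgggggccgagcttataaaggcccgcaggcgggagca
Edn1: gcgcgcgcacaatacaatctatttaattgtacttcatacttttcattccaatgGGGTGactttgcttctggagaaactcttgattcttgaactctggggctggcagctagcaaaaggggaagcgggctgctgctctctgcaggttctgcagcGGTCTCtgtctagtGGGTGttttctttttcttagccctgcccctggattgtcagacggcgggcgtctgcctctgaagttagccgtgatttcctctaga
RefSeq promoters were matched for 6 of the 10 genes. A KLF box was found in 4 of the 6 (Klf2, Piezo1, Edn1, with 2 boxes, and Selp) against 52.0% of all 32851 RefSeq promoters of this length. The RefSeq start of Klf2 lies 29 bases downstream of its start in the deposited table. Its KLF box falls between those starts, inside the gene by the table's coordinates. GAGACC was found in 3 of the 6 (Piezo1, Edn1 and Selp) against 13.7%. The AP-1 site TGANTCA was found in Selp, against 6.75% of promoters. The promoters of Klf4 and Ednra held none of these letters in this window. No promoter was matched for Nos3, Thbd, Vwf and Vcam1.

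In the IncPBF group Vwf, Thbd and Piezo1 were downregulated and Klf4 was upregulated, while Klf2, Nos3, Edn1, Ednra and Vcam1 did not pass the test. The 4 genes called are 44.4% of the 9 tested, beside 32.3% of all genes tested (16.1% higher and 16.2% lower in the IncPBF group). Called means a Benjamini-Hochberg adjusted p under 0.05 over all 15388 genes in limma, a linear model with moderated variances, on log2(FPKM + 0.1), and log2 fold changes are on that scale. The groups did not overlap for 2 of the 9 genes, Vwf and Thbd, beside 23.2% of all genes tested. Libraries held 16103423 to 20318525 fragments on genes in the IncPBF group against 18171494 to 19400575 in the sham group. The scaling value behind the deposited FPKM was 1.02 to 1.07 times this total in the IncPBF lungs. In the sham lungs it was 0.958 to 1.03 times the total. The median log2 fold change of all genes tested was 0.01. With an equal total of fragments per lung it was 0.09, and the calls split into 3561 higher and 1782 lower in place of 2480 and 2490. With that total the calls among the 9 genes were 2 higher, Klf2 and Klf4, and 3 lower, beside 23.0% and 11.5% of all genes.

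**Figure D1:**
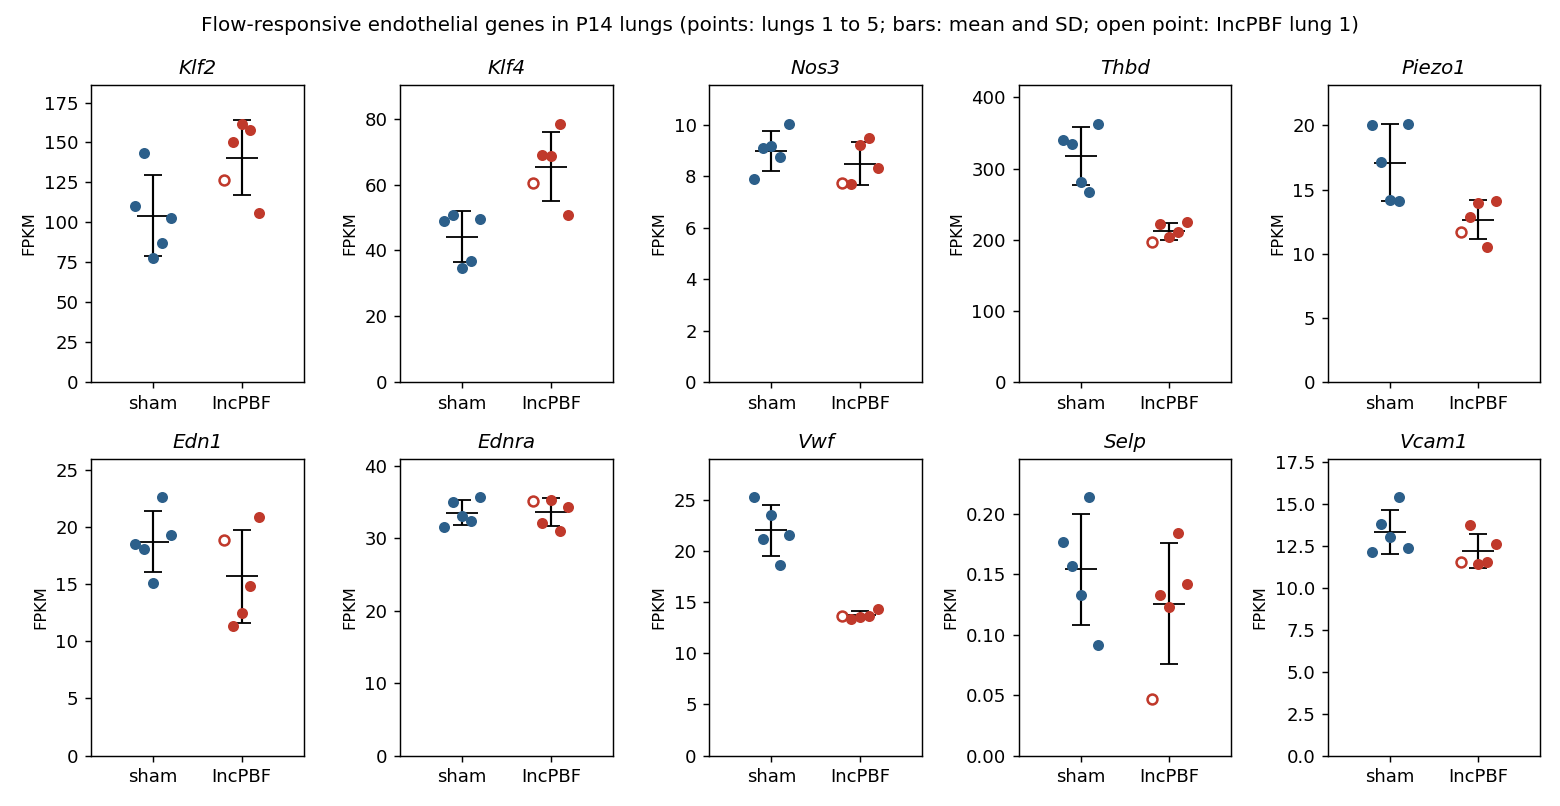
FPKM of each of the 10 genes (y axes, each from 0) in the 5 sham lungs (blue) and the 5 IncPBF lungs (red), with the group mean and SD as bars and IncPBF lung 1, the IncPBF lung with low Xist, as an open point. Thbd and Vwf were lower in all 5 IncPBF lungs than in any sham lung, and the other 8 genes overlapped between groups.

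The sex of the pups is not in the labels, and sex-linked expression was nearly split by group. Xist, transcribed from the inactive X chromosome, stood at 52.4 to 66.5 FPKM in IncPBF lungs 2 to 5, at 0.0144 in IncPBF lung 1 and at 0.0770 or less in the sham lungs. The Y-linked Ddx3y was at 18.6 FPKM in IncPBF lung 1 and 21.8 to 24.6 in the sham lungs, and at 0.00926 or less in the other IncPBF lungs. The surgery and sex-linked expression can therefore be told apart only through that 1 lung. With log2 Xist as a covariate, Vwf (log2 fold change -0.67, adjusted p in limma 0.0216) and Thbd (-0.65, adjusted p 0.0470) were still called, beside 4.82% of all genes (2.13% higher and 2.68% lower). Klf4 (0.49, adjusted p 0.292) and Piezo1 (-0.49, adjusted p 0.233) then missed the threshold. Among the low-Xist lungs alone, 1 IncPBF lung against 5 sham lungs and assuming that it varied as they did, none of the 9 genes was called by limma and 2 had an unadjusted p under 0.05, beside 1.04% of all genes called (0.280% higher and 0.762% lower). The log2 fold changes there were -0.67 for Vwf, -0.68 for Thbd, -0.52 for Piezo1, 0.47 for Klf4 and 0.31 for Klf2.

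Klf2 and Klf4 are zinc-finger transcription factors, and the pair moved from lung to lung together. Klf2 measured 126, 150.2, 162, 158 and 106 FPKM in IncPBF lungs 1 to 5 and 110.4, 143, 77.3, 87.0 and 103 FPKM in sham lungs 1 to 5. IncPBF lungs 1 and 5 lay within the sham range, and sham lungs 1 and 2 within the IncPBF range. Klf2 averaged 140.4 ± 23.6 FPKM in the IncPBF group against 104 ± 25.5 in the sham group (SD, n = 5 each), a log2 fold change of 0.44 ± 0.17 (SE) with an adjusted p of 0.0612 in limma and p = 0.0476 in the exact two-sided permutation test on FPKM. Klf2 passed the adjusted threshold in limma with an equal total per lung (0.0268), with quantile normalization (0.0424) and in limma-voom on recovered fragments (0.0130). Of the fits with 1 lung left out, 2 passed, without IncPBF lung 5 (0.0298) and without sham lung 2 (0.0158). In the others the adjusted p in limma reached 0.130. Klf2 missed with the Xist covariate (log2 fold change 0.34, adjusted p in limma 0.559) and without the expression filter (adjusted p 0.123).

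Klf4 measured 60.4, 68.9, 68.7, 78.6 and 50.7 FPKM in the IncPBF lungs against 48.8, 50.9, 34.6, 36.8 and 49.6 FPKM in the sham lungs. Only IncPBF lung 5, at 50.7 FPKM, fell below the highest sham lung, at 50.9 FPKM. The mean was 1.48 times as high in the IncPBF group (65.4 ± 10.5 against 44.1 ± 7.76, SD, n = 5 each), a log2 fold change of 0.57 ± 0.14 (SE, adjusted p = 0.00965 in limma, exact permutation p = 0.0159). Klf2 stood above Klf4 in every lung, and their log2 ratio was 1.10 in the IncPBF group against 1.22 in the sham group (difference -0.13, exact permutation p = 0.167).

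**Figure D2:**
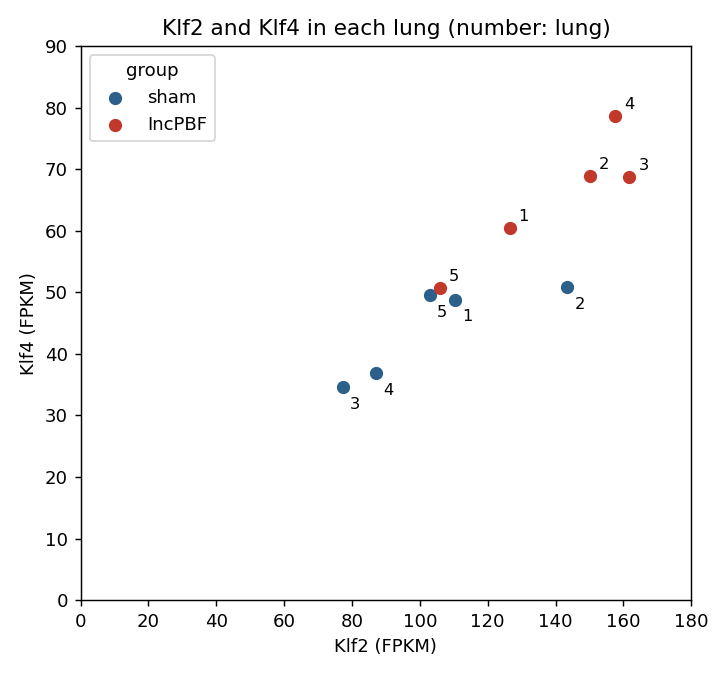
Klf2 (x axis, FPKM) against Klf4 (y axis, FPKM) in each lung, numbered within its group, sham in blue and IncPBF in red. Klf2 and Klf4 tended to be high in the same lungs of a group, and IncPBF lung 5 lay among the sham lungs.

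Over the 10 lungs, deviations of Klf2 and Klf4 from their group means had a Pearson's r of 0.90 (exact permutation p = 0.000556 over 14400 re-pairings within the groups, 0.02 after Benjamini-Hochberg adjustment over the 36 pairs of tested genes). Spearman's rho of the ranks within groups was 0.80 (exact permutation p = 0.0192, adjusted 0.605). Within the groups r was 0.94 in the IncPBF lungs against 0.88 in the sham lungs. Without IncPBF lung 5 and sham lung 3, whose Klf2 deviations lay farthest from the median deviation, it was 0.78. Klf2 and Klf4 were the only pair of the 36 with an adjusted p under 0.05 for r. Thbd and Piezo1 came next (r = 0.80, rho = 0.75, exact permutation p = 0.0280 and 0.0336, adjusted 0.504 and 0.605), with an r of 0.63 without sham lungs 3 and 4.

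Immediate early genes, which respond quickly to stimulation and to tissue handling, were read beside Klf2 and Klf4. Of 15 such genes tested, 3 rose and 2 fell, which is 33.3% called beside 32.3% of all genes, with a median log2 fold change of 0.16. Nr4a1, an orphan nuclear receptor gene, rose from 6.37 ± 2.05 to 32.8 ± 21.2 FPKM (log2 fold change 2.12, adjusted p = 0.0036 in limma), with IncPBF lungs from 10.05 to 63.1 FPKM. Atf3, a stress-induced transcription factor gene, rose by 0.92 and Ier2 by 0.44, while Fosl1, an AP-1 subunit gene, fell by 0.43. The mean log2 value of this list ran from 3.08 to 4.01 in the IncPBF lungs, lowest in lung 5, and from 2.92 to 3.52 in the sham lungs, highest in lung 2. Deviations of this mean from its group means had a Pearson's r of 0.63 with those of Klf2 and 0.45 with those of Klf4. For the mean of the endothelial markers described below r was 0.66 and 0.68. These r are given without a test, and the part of either mean in the Klf2 and Klf4 values was not tested.

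In the arm upstream of Klf2 and Klf4, 1 of 13 genes tested rose and 4 fell, which is 38.5% called beside 32.3% of all genes, with a median log2 fold change of -0.12. Mef2c, a MEF2 transcription factor gene, rose from 4.03 ± 0.305 to 5.50 ± 0.237 FPKM (0.44 ± 0.06, adjusted p = 0.000561 in limma), and its groups did not overlap. Map3k3, the kinase gene upstream of MEK5, fell by 0.45, Mef2a by 0.31, and Heg1, the receptor gene of the cerebral cavernous malformation complex that restrains Klf2 and Klf4, by 0.51. Map2k5, which encodes MEK5, stood at a log2 fold change of -0.12 (adjusted p = 0.178), Mapk7, which encodes ERK5, of 0.10 (adjusted p = 0.321) and Mef2d of -0.05 (adjusted p = 0.634 in limma).

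Of 13 tested targets that KLF2, KLF4 or Nrf2 are known to raise under laminar flow, Thbd and Nos3 among them, 1 rose, 4 fell and 8 were not called, which is 38.5% called beside 32.3% of all genes, with a median log2 fold change of -0.08. Txnrd1, the Nrf2 target thioredoxin reductase, rose by 0.34 (adjusted p = 0.00115 in limma). Thbd fell, as did Tek, the angiopoietin receptor, by 0.47 and Aqp1, a water channel, by 0.45.

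Piezo1 encodes a cation channel opened by membrane tension. It measured 11.7, 12.9, 13.95, 10.5 and 14.1 FPKM in the IncPBF lungs against 19.998, 17.1, 14.2, 14.1 and 20.1 FPKM in the sham lungs. Sham lungs 3 and 4 stood level with the highest IncPBF lungs, and the groups overlapped by less than 0.05 FPKM. The mean fell from 17.1 ± 2.97 to 12.6 ± 1.53 FPKM (SD, n = 5 each), a log2 fold change of -0.42 ± 0.12 (adjusted p = 0.0215 in limma, exact permutation p = 0.0159). The adjusted p was 0.0541 without IncPBF lung 4, 0.0524 without sham lung 1 and 0.0503 without sham lung 5. Of Piezo1's 9935 exonic bases, 2441 overlap exons of Ctu2 on the opposite strand, which averaged 2.92 FPKM in the IncPBF group against 2.17 in the sham group. Whether counting used strand is not given in the sources used here.

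Piezo1 belonged to a list of flow sensors at the endothelial surface in which 11 of 17 tested genes fell and none rose (median log2 fold change -0.37, limma, with 1 gene higher at an unadjusted p under 0.05). Of all genes, 16.2% fell and 16.1% rose. Relative to the endothelial markers described below, 3 were higher and 3 lower, beside 50.6% and 4.48% of all genes. With the Xist covariate none passed the adjusted threshold, beside 2.13% higher and 2.68% lower of all genes. Pkd1 and Pkd2, the polycystin genes of the primary cilium, fell by 0.63 and 0.44. Cav1, the coat protein of caveolae, fell by 0.49, and Pecam1, a junction protein that takes part in flow sensing, by 0.37. With limma-voom the calls were 1 higher and 10 lower, beside 23.7% and 12.1% of all genes. Of the list's 18 genes, 3 are also endothelial markers.

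**Figure D3:**
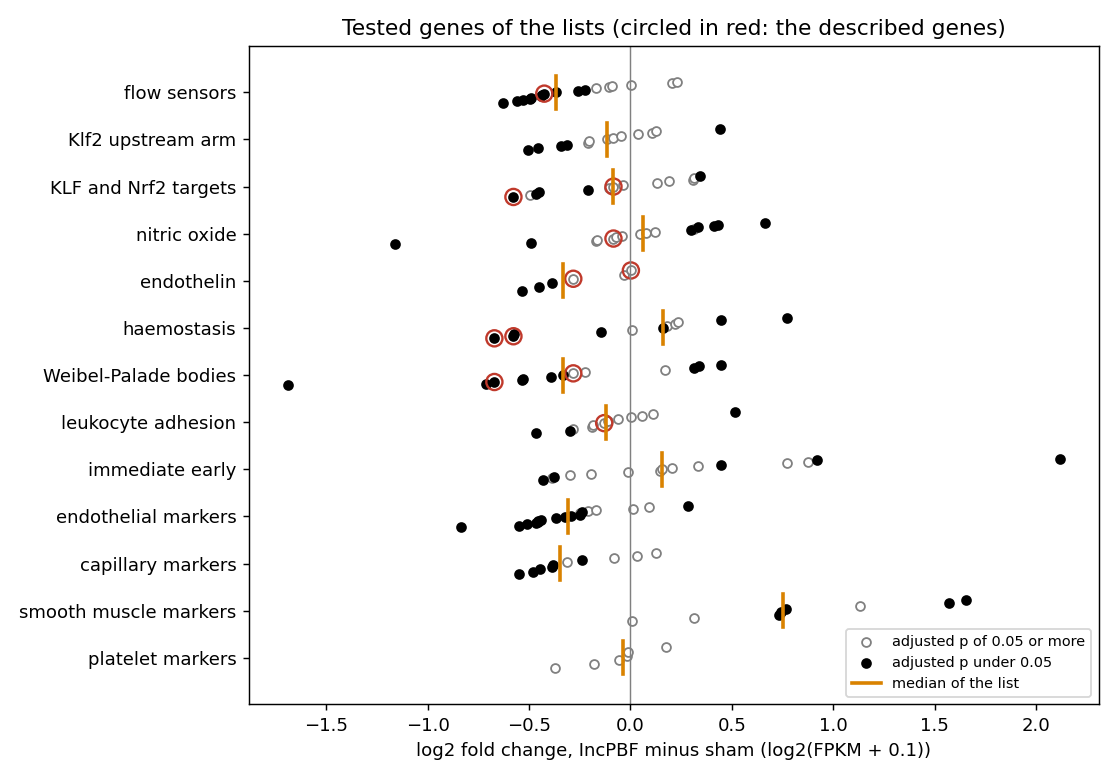
Log2 fold change (x axis, IncPBF minus sham) of every tested gene in 13 gene lists, 1 point per gene, filled where the adjusted p in limma was under 0.05, with the list's median as an orange line and the genes described here circled in red. The flow sensors and the endothelial markers lay mostly below 0 (medians -0.37 and -0.31), the smooth muscle markers above it (median 0.75).

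Endothelial markers were lower as a list. Of 18 pan-endothelial genes, 12 fell and 1, Egfl7, rose, beside 16.2% and 16.1% of all genes, with a median log2 fold change of -0.31. With the Xist covariate 2 of the 18 were called lower and none higher, beside 2.68% and 2.13% of all genes. Cdh5, the endothelial cadherin, averaged 248 ± 15.5 FPKM in the IncPBF group against 339 ± 50.7 in the sham group, and Ptprb, a phosphatase of endothelial junctions, fell by 0.83. The mean log2 value of the list lay at 6.14 to 6.22 in the IncPBF lungs against 6.29 to 6.60 in the sham lungs, with no overlap, and the list summed to 1830 to 1965 FPKM and 2041 to 2532 FPKM.

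Each gene was therefore also read relative to its lung's mean over these 18 markers, on the log2 scale. Because the marker mean fell by 0.30, this raises the log2 fold change of every gene by 0.30, also of genes expressed mainly outside endothelium. By that measure Klf4 (0.87 ± 0.11, SE), Klf2 (0.75 ± 0.14) and Ednra (0.30 ± 0.06) were higher in the IncPBF group, Thbd (-0.28 ± 0.08) and Vwf (-0.37 ± 0.09) were lower, and the adjusted p in limma was 0.000168, 0.00118, 0.00174, 0.0101 and 0.00633 in that order. The 5 genes called compare with 55.0% of all genes called by this measure, 50.6% higher and 4.48% lower. The groups did not overlap for Klf4 and Ednra, higher, and for Thbd and Vwf, lower, beside 37.3% of all genes without overlap by this measure (34.3% higher and 2.98% lower). Nos3 (0.22, adjusted p = 0.0550), Vcam1 (0.17, adjusted p = 0.178), Edn1 (0.02, adjusted p = 0.925) and Piezo1 (-0.12, adjusted p = 0.307) did not pass. Nos3 passed in limma with a pseudocount of 1 (adjusted p 0.0350) and with a filter of at least 1 FPKM (0.0498). With 1 lung left out it passed without IncPBF lung 1 (0.0427) and without sham lung 3 (0.0171). In the other such fits the adjusted p in limma reached 0.133. Nos3 missed with the Xist covariate (0.06, adjusted p in limma 0.801) and with capillary in place of endothelial markers (adjusted p 0.0971). With the Xist covariate Klf4 alone was called, beside 8.12% of all genes (6.95% higher and 1.17% lower). In the low-Xist lungs none was called by limma, with 4 at an unadjusted p under 0.05, beside 0.821% of all genes called (0.456% higher and 0.365% lower).

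**Figure D4:**
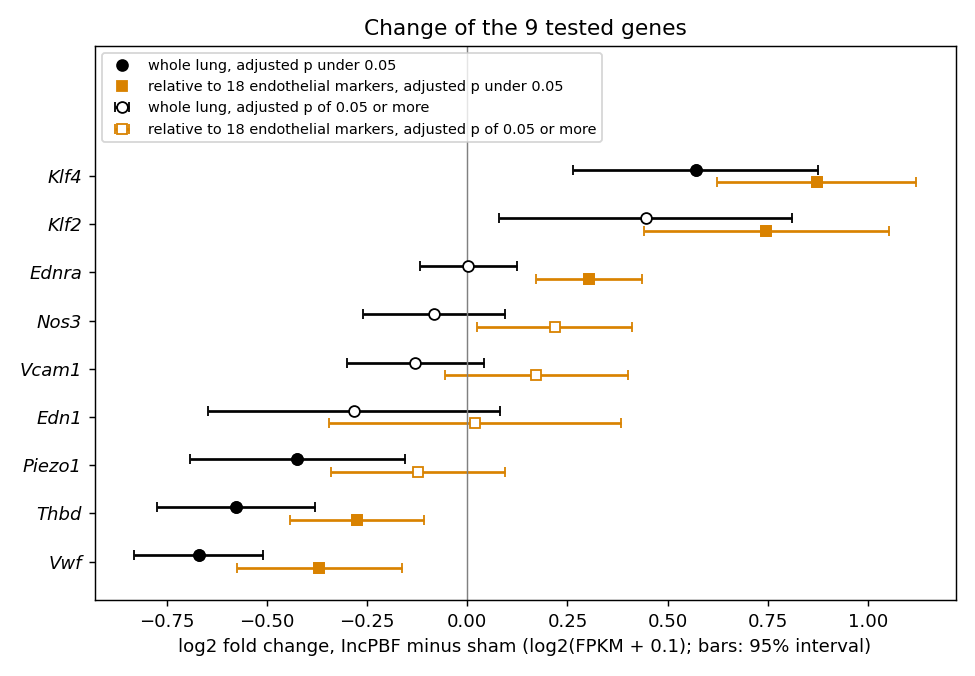
Log2 fold change (x axis, IncPBF minus sham, bars 95% intervals) of the 9 tested genes in whole lung (black circles) and relative to the mean of 18 endothelial markers (orange squares), filled where the adjusted p in limma was under 0.05. Thbd and Vwf lay below 0 by both measures and Klf4 above 0 by both. Ednra was at 0.00 in whole lung and at 0.30 relative to the markers, a shift that all genes share.

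Nos3 makes nitric oxide, the dilator that endothelium releases under flow. It measured 7.72, 7.70, 9.22, 9.48 and 8.32 FPKM in the IncPBF lungs against 7.89, 9.11, 9.17, 8.76 and 10.05 FPKM in the sham lungs, so the groups overlapped over most of their range. The log2 fold change was -0.08, with a 95% interval from -0.26 to 0.09 (adjusted p = 0.461 in limma). Its exons share 1040 bases with the antisense gene Gm15587, which averaged 0.132 FPKM or less in either group. Of 15 other tested genes for its partners, cofactor, substrate and inhibitors, 5 rose and 2 fell, beside 16.1% and 16.2% of all genes. With the Xist covariate 0 of these 16 genes, Nos3 included, were called higher and 1 lower, beside 2.13% and 2.68% of all genes. Ddah2, which degrades the inhibitor dimethylarginine, rose from 76.3 ± 7.08 to 101 ± 5.59 FPKM (0.41, adjusted p = 0.00131) and Slc7a1, an arginine transporter, rose by 0.33. Arg2, an arginase that uses the same substrate, fell by 1.16 and Cav1, which binds and restrains the enzyme, by 0.49.

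Edn1 encodes the vasoconstrictor endothelin-1. It measured 18.8, 11.3, 12.5, 14.8 and 20.9 FPKM in the IncPBF lungs against 18.5, 18.1, 15.1, 22.6 and 19.3 FPKM in the sham lungs. IncPBF lungs 2, 3 and 4 were below every sham lung and lungs 1 and 5 among them. The log2 fold change was -0.28, with a 95% interval from -0.65 to 0.08 (adjusted p = 0.220 in limma). With the Xist covariate it was 0.04. The log2 ratio of Edn1 over Nos3 was 0.84 ± 0.42 in the IncPBF group against 1.04 ± 0.25 in the sham group (SD, n = 5 each, exact permutation p = 0.389).

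Beside Edn1 and Ednra, the endothelin pathway had 4 tested genes, of which 3 fell and none rose in limma or limma-voom, adjusted or not. Of all genes, 16.2% fell and 16.1% rose in limma. Ece1, the enzyme that cuts endothelin from its precursor, fell from 98.7 ± 8.35 to 68.0 ± 3.45 FPKM (-0.53 ± 0.07, adjusted p = 0.000174 in limma). Mme, the neprilysin gene that degrades endothelin, fell by 0.45. Ednrb, the endothelin B receptor gene of capillary endothelium, fell by 0.39 (adjusted p = 0.0185). Edn3, another ligand, stood at -0.03 on that scale (adjusted p = 0.766), and Edn2 and Ece2 held no more than 3 fragments in any lung.

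Ednra encodes the endothelin A receptor, which sits mainly on smooth muscle and mesenchymal cells. It measured 35.1, 32.2, 35.4, 31.0 and 34.4 FPKM in the IncPBF lungs against 31.5, 35.04, 33.1, 32.4 and 35.7 FPKM in the sham lungs, the same range in both groups. The log2 fold change was 0.00, with a 95% interval from -0.12 to 0.12 (adjusted p = 0.979 in limma), the narrowest interval of the 9 genes. Smooth muscle markers moved apart from it. Of 8 tested, 5 rose and none fell in limma or limma-voom, adjusted or not, beside 16.1% and 16.2% of all genes in limma. With the Xist covariate none of the 8 was called, beside 2.13% higher and 2.68% lower of all genes. Acta2, smooth muscle actin, went from 108 ± 36.0 to 313 ± 76.6 FPKM. Ednra minus the mean of these 8 markers was 1.02 ± 0.40 on the log2 scale in the IncPBF group against 1.89 ± 0.45 in the sham group (difference -0.86, exact permutation p = 0.00794, the smallest that 252 assignments allow). The groups did not overlap, but the highest IncPBF lung, lung 1 with low Xist, reached 1.457 and the lowest sham lung 1.467. Xist was not tried as a covariate for this difference. The log2 ratio of Ednra over Ednrb was 0.31 ± 0.18 against -0.08 ± 0.23 (difference 0.39, exact permutation p = 0.0238, adjusted p = 0.0952 over the 4 ratios computed).

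Thbd encodes thrombomodulin, the receptor that turns thrombin to activating protein C, and it was the most abundant of the 10 genes per length of transcript. It measured 197, 222, 204, 210.3 and 225 FPKM in the IncPBF lungs against 339.8, 335, 281, 268 and 363 FPKM in the sham lungs. Every IncPBF lung was below every sham lung, and the IncPBF lungs spread less. The mean fell by 33.3%, from 317 ± 40.9 to 212 ± 11.7 FPKM (SD, n = 5 each), a log2 fold change of -0.58 ± 0.09 (adjusted p = 0.000815 in limma, exact permutation p = 0.00794).

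Vwf encodes von Willebrand factor, the platelet-binding protein stored in Weibel-Palade bodies. It measured 13.7, 13.4, 13.5, 13.7 and 14.3 FPKM in the IncPBF lungs against 25.2, 21.1, 23.5, 18.6 and 21.6 FPKM in the sham lungs. The IncPBF lungs lay within 1 FPKM of each other and below every sham lung. The log2 fold change was -0.67 ± 0.07 (adjusted p = 9.42e-05 in limma, exact permutation p = 0.00794), and the mean fell by 37.6%, from 21.99 ± 2.51 to 13.7 ± 0.373 FPKM. The log2 ratio of Thbd over Vwf was 3.94 ± 0.07 in the IncPBF group against 3.84 ± 0.19 in the sham group (exact permutation p = 0.365). Platelets carry Vwf protein and transcript as well. Of 6 platelet markers tested none was called by limma or limma-voom and none had an unadjusted p under 0.05 in limma. Of all genes, 32.3% were called by limma. Pf4 averaged 11.7 ± 2.01 FPKM in the IncPBF group against 11.9 ± 2.89 in the sham group, the summed list ran from 18.7 to 30.4 and from 17.1 to 45.9 FPKM, and Gp1bb was at 3 fragments or fewer.

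Of 9 other tested genes of clotting and its control, 3 rose and 2 fell, beside 16.1% and 16.2% of all genes. Entpd1, an ectonucleotidase that removes platelet-activating nucleotides, fell from 27.0 ± 1.91 to 18.1 ± 0.809 FPKM (-0.57 ± 0.06, adjusted p = 5.93e-05 in limma). Plat, the tissue plasminogen activator, rose by 0.45. Of 11 other tested genes for the cargo and release of Weibel-Palade bodies, 3 rose and 6 fell, beside the same shares of all genes. With the Xist covariate 1 of this list's 13 tested genes, Vwf included, was called higher and 6 lower. Of all genes, 2.13% and 2.68% then were. Rab3d, Rab27a and Myrip, a set of genes that tether and move these granules, fell by 0.71, 0.53 and 1.69, with Myrip at 0.487 to 0.911 FPKM in the IncPBF lungs against 1.597 to 2.96 FPKM in the sham lungs. Epithelial and other secretory cells also use this machinery, and the cells behind these values were not tested.

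Vcam1 and Selp are adhesion molecules that bind leukocytes. Vcam1 measured 11.5, 13.8, 11.4, 11.5 and 12.6 FPKM in the IncPBF lungs against 12.1, 13.8, 13.003, 15.4 and 12.4 FPKM in the sham lungs. IncPBF lungs 1, 3 and 4 were below every sham lung. The log2 fold change was -0.13, with a 95% interval from -0.30 to 0.04 (adjusted p = 0.228 in limma). Selp, P-selectin, was scarce at 0.0469, 0.133, 0.123, 0.184 and 0.142 FPKM in the IncPBF lungs against 0.177, 0.156, 0.132, 0.213 and 0.0911 FPKM in the sham lungs. These are 4 to 14 fragments and 7 to 18 fragments per lung. The exact permutation p on FPKM was 0.389, and in limma without the filter the log2 fold change was -0.18, with a 95% interval from -0.70 to 0.33 (adjusted p = 0.666), which at this depth leaves only large differences detectable. Of 11 other adhesion, leukocyte and NF-kB genes tested, 1 rose and 2 fell, beside 16.1% and 16.2% of all genes. Itga4, the leukocyte integrin chain that binds VCAM1, rose by 0.52 (adjusted p = 0.00102), while Cx3cl1, a membrane-bound chemokine gene, fell by 0.46 and Nfkbia, the NF-kB inhibitor gene, by 0.30.

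Per length of transcript, mean FPKM in the sham group ran from Thbd (317) through Klf2 (104), Klf4 (44.1), Ednra (33.5), Vwf (21.99), Edn1 (18.7), Piezo1 (17.1), Vcam1 (13.3) and Nos3 (8.99) to Selp (0.154). Lungs overlapped between Klf4 and Ednra, and between each neighbouring pair from Vwf to Vcam1. In the IncPBF group Klf4 stood clear of Ednra (65.4 against 33.6 FPKM), Edn1 (15.7) and Vwf (13.7) exchanged places, and neighbours from Edn1 to Vcam1 overlapped.

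Among the 15387 other genes tested, the 3 most like each of 3 chosen genes over the 10 lungs, by Pearson's r of deviations from the group means, are given as a description without a test. For Klf2 they were Vtn (0.96), AC151284.1 (0.93) and Riox1 (0.93). For Nos3 they were Ccnjl (0.96), Hsf1 (0.96) and Rbpms (0.93). For Edn1 they were Snrpe (0.97), Stbd1 (0.96) and Dclre1b (0.93). The points share library and depth.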

How the data were processed

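Bulk RNA-sequencing covered 10 P14 lungs (5 IncPBF, 5 sham). Per the labels, Trizol RNA went into NEBNext libraries. The authors deposited FPKM per gene with gene lengths, and the submitters' processing notes name Bowtie 0.12.2 and the builds GRCm38, mm10 and hg38 without roles. The counting software is not given in the sources used here. The 5 table columns not named sham use other letters than the IncPBF sample titles, and were matched to them by their number. The table's coordinates equalled GENCODE M21 on GRCm38 for 98.3% of shared genes.

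Genes with a mean of at least 0.5 FPKM entered limma 3.58.1 in R 4.3.3 as log2(FPKM + 0.1) (lmFit, eBayes with a trend, no covariates). Single values were compared by exact two-sided permutation over 252 assignments. FPKM times length gave whole fragments (within 0.05) for 100% of values, used for limma-voom and for depth. Without molecular identifiers these cover counting error only. The labels do not say whether lungs of a group shared a litter or batch, so p-values measure the spread between these lungs. The members, the 20 other gene lists and the tests were chosen with earlier results of these data known. Named genes are the members, up to 4 called genes with the smallest p per list, endothelin genes and genes upstream of Klf2 by role, and 5 markers; Egfl7, the single riser of its list, was named after its values were seen. The limma fit was tested on simulated data. Sequences are from RefSeq (GRCm38.p6). Python 3.11.15, pandas 2.3.3 and matplotlib 3.10.9 were used. Alternatives were the pseudocount, filter, scaling, variance model, limma-voom, replicate block, Xist and each lung left out.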

Additional observations from a re-analysis of the deposited data

Results flagged for a closer look

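Of 116 groups of 5 lungs checked, for the 53 genes named with values and 5 log2 ratios, 4 held a lung far from the other 4 by Dixon's criterion, which chance meets in about 1 group in 20. None of the 10 flow-responsive genes was among them. Mef2d was at 21.4 FPKM in sham lung 5 and at 17.0 to 18.1 in the other sham lungs. Ednrb was at 23.5 FPKM in IncPBF lung 3 and at 27.6 to 29.1 in the other IncPBF lungs. Cx3cl1 was at 7.11 FPKM in IncPBF lung 4 and at 8.19 to 8.55 in the others. Gja5 was at 12.4 FPKM in sham lung 4 and at 6.55 to 8.12 in the other sham lungs.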

How the results depend on the processing

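With log2 Xist as a covariate, the 4 genes called of 9 in whole lung became 2, beside 32.3% and 4.82% of all genes. The 5 called relative to the endothelial markers became 1, beside 55.0% and 8.12% of all genes. The 48 called of 101 genes in the 9 pathway lists became 10, 3 higher and 7 lower. A gene can be in more than 1 list. The clotting list kept 0 higher and 3 lower. The endothelin list and the KLF and Nrf2 targets kept 0 and 1 each. The arm upstream of Klf2 and the leukocyte adhesion list kept 1 and 0 each, and the immediate early list 0 and 0. The SE of the log2 fold change rose from 0.07 to 0.13 for Vwf and from 0.14 to 0.25 for Klf4. The cause of the fewer calls was not tested. Among the low-Xist lungs 1 IncPBF lung was left, so their counts are not repeated here. Leaving out each lung in turn gave 3 to 5, 5 to 6 and 39 to 52 calls, without the share of all genes computed beside them. It gave -0.32 to -0.10 for Edn1 over Nos3, -0.17 to -0.06 for Klf2 over Klf4, 0.32 to 0.48 for Ednra over Ednrb, 0.03 to 0.15 for Thbd over Vwf and -0.97 to -0.68 for Ednra over the smooth muscle markers, all on the log2 scale. Ednra over Ednrb had an exact permutation p of 0.0556 without sham lung 1, 2 or 5. Edn1 changed sign with the Xist covariate (0.038) and in the low-Xist lungs (0.020), and relative to capillary in place of endothelial markers (-0.010). Near 0, Ednra ran from -0.020 to 0.031 and Edn1 relative to the endothelial markers from -0.10 to 0.12 as lungs were left out. The other pseudocounts, filters, scalings, variance model and limma-voom left these counts of calls within 1.5 times.

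Replicate numbers did not pair the lungs. Deviations of same-numbered lungs correlated at -0.07 to 0.09, with 0 of 5 pairs over 0.1, and 2 of 10 lungs correlated best with their own number. With the replicate block 4 of the 9 genes were called in whole lung, 6 relative to the endothelial markers, where Nos3 was added, and 48 in the pathway lists. The share of all genes called with the block was not computed. Without the block it was 32.3% in whole lung and 55.0% relative to the endothelial markers.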

Other observations

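Of 8 arterial endothelial markers tested, 1 rose and 2 fell (median log2 fold change -0.08). Gja5, the arterial connexin 40, rose from 8.55 to 15.7 FPKM. Of 5 venous markers, 3 fell and none rose in limma, while limma-voom called 1 higher (median -0.46), and Slc6a2, a noradrenaline transporter, fell from 20.01 to 6.74 FPKM. Of 4 lymphatic markers, 2 fell (median -0.46), with Lyve1, a hyaluronan receptor, down from 137 to 78.0 FPKM. Of 10 capillary markers, 6 fell (median -0.35). Of all genes tested, limma called 16.1% higher and 16.2% lower, and limma-voom 23.7% and 12.1%.

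Among other cell types, 2 of 10 pericyte and fibroblast markers rose and 2 fell, and Pdgfra, a receptor of alveolar fibroblasts, fell from 58.1 to 22.4 FPKM. Of 10 epithelial markers 6 fell, of 7 macrophage markers 2 fell, and of 5 erythroid markers 3 fell, beside 16.2% of all genes. Hba-a1, a haemoglobin gene that reports residual blood, averaged 333 ± 251 FPKM in the IncPBF group against 779 ± 132 in the sham group.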
